A study of Mus musculus with 12 samples.

Results

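The genes of endoplasmic reticulum (ER) stress and the unfolded protein response were examined as a list of 35, in RNA from kidney proximal tubules of mice, the nephron segment that reabsorbs most of what the glomerulus filters. The genes were chosen by name and not by a rule on measured values, though earlier results of these data were known. Each was read through the probe set of its symbol with the highest mean over the 12 arrays, and kept if that probe set lay above 4 (log2) on at least 3 arrays. All 35 genes had a probe set and 31 were kept, out of 9744 genes kept in the whole series. The study used 4 groups of 3 arrays each. dB/dB catalase-Tg mice carried the dB/dB mutation and a catalase transgene, dB/dB mice carried the mutation alone, catalase-Tg mice the transgene alone, and wild-type mice neither. The dB/dB mutation disables the leptin receptor, and these mice grow obese and diabetic, and catalase, an enzyme of peroxisomes, destroys hydrogen peroxide. From published work on these mice, and not from the labels, the transgene is rat catalase driven by the kidney androgen-regulated protein promoter, which is active in proximal tubule cells. All mice were 20 weeks old and on a normal diet, and tubules were purified by Percoll centrifugation. Samples are numbered within a group, but no label states that each is a different animal. The p-values therefore measure only how far these samples differ, which may be technical. In such bulk RNA, fewer cells of a type and less RNA per cell cannot be told apart.

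The ER folds secreted and membrane proteins, and the unfolded protein response adjusts its capacity when unfolded proteins build up. Its sensors are ATF6, which is cleaved into a transcription factor, IRE1 (Ern1), which splices Xbp1 mRNA, and PERK (Eif2ak3), which phosphorylates eIF2alpha and so favours translation of ATF4. ATF6 and spliced XBP1 raise chaperones and degradation factors, while ATF4 raises amino acid and redox genes and CHOP (Ddit3), a factor linked to cell death under long stress. Proximal tubule cells take up and secrete large amounts of protein, and ER stress in them has been studied in diabetic kidney disease.

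Some of the listed genes held a promoter element that the choice by name did not use. The ER stress response element (ERSE), the letters CCAAT and CCACG with any 9 bases between them, on either strand, is the site bound by ATF6 with the CCAAT-binding factor NF-Y. It was defined from promoters of genes of this kind, so its presence in them is a description. In the RefSeq promoter windows of GRCm38.p6, which run from 250 bases before to 50 bases after a gene's start, it was present in 9 of the 31 listed genes with a window, which is 29.0%. Over all genes with a window it was present in 37 of 27025, or 0.137%. Only 1 of 148 other genes of the pathway with a window held it, Ero1b. Of the 10 sites, 6 read with the gene and 4 against it, and they began 44 to 212 bases before the start. The sites are shown because well-known targets of ATF6, among them Hspa5, Hsp90b1 and Calr, hold the element. Other listed genes, such as Herpud1 and Pdia4, did not hold these exact letters in their window. The fixed letters of the element are in capitals, with 10 bases to each side and the strand that reads as the element.
Hspa5 (chr2:34772015-34772053, + strand): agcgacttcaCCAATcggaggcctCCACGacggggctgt
Hsp90b1, site far from the start (chr10:86705628-86705666, - strand): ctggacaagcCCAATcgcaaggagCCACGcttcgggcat
Hsp90b1, site near the start (chr10:86705523-86705561, + strand): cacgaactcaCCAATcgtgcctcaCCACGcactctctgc
Calr (chr8:84847065-84847103, + strand): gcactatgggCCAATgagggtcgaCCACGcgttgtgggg
Canx (chr11:50325790-50325828, - strand): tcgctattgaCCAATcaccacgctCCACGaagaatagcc
Dnajc3 (chr14:118937817-118937855, + strand): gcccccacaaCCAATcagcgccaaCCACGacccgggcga
Creld2 (chr15:88819510-88819548, - strand): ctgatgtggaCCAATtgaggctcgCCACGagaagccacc
Pdia6 (chr12:17266481-17266519, + strand): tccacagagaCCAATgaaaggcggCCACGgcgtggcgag
Syvn1 (chr19:6046522-6046560, + strand): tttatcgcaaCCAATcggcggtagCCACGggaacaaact
Derl3 (chr10:75893232-75893270, - strand): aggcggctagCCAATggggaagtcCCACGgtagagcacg

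Shorter or related elements were searched in the same windows, on both strands. The compact ERSE-II, the letters ATTGG and CCACG with any 1 base between them, was present in Dnajb11 and Herpud1, and in 12 of 27025 genes. The ATF4 element TGATGCAA was present in Atf3, Herpud1 and Chac1, and in 279 of 27025 genes, or 1.03%. The cyclic AMP response element TGACGTCA was present in Ppp1r15a alone among the listed genes, against 2.03% of all genes. The plain CCAAT box, which is part of ERSE, was present in 26 of the 31 listed genes, against 41.1% of all genes. Herpud1 is shown with both of its elements, and Atf3 with its ATF4 element, because their values differed widely between arrays of a group.
Herpud1, ERSE-II (chr8:94386367-94386397, + strand): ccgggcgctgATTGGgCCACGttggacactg
Herpud1, ATF4 element (chr8:94386307-94386334, - strand): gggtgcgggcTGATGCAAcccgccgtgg
Atf3, ATF4 element (chr1:191183426-191183453, + strand): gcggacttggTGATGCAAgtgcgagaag
The whole window of Hspa5, the central target of the response, is shown for the setting of its element, with capitals marking the ERSE and, before it, the core of the unfolded protein response element, TGACGTG, which was present in 2.22% of all genes.
Hspa5 window (chr2:34771840-34772139, + strand): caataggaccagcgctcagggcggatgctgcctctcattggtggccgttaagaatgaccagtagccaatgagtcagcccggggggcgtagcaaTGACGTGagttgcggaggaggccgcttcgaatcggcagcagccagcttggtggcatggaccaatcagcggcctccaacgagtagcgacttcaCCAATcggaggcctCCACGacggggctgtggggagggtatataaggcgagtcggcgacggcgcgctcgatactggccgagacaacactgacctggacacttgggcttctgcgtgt

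The arrays were checked before the genes were compared. Cat, the gene of the transgene, read 11.78 to 12.90 in dB/dB catalase-Tg, 12.24 to 12.56 in dB/dB, 11.98 to 12.42 in catalase-Tg and 10.66 to 12.68 in wild type, so that this probe set of the mouse gene did not separate transgenic from other arrays. Whether it reads the transgene was not tested. Kap, the mouse gene of the kidney androgen-regulated protein, read 13.04 to 15.29 in dB/dB catalase-Tg and 12.79 to 13.70 in dB/dB. It read 8.46, 15.26 and 15.22 in catalase-Tg, and 8.63, 11.70 and 15.23 in wild type. What this spread means for the transgene's promoter was not tested. All 10 proximal tubule markers were above the filter, with mean levels of 12.16 to 13.02 in dB/dB catalase-Tg, 11.87 to 12.11 in dB/dB, 12.15 to 12.80 in catalase-Tg and 10.59 to 12.98 in wild type, the lowest being wild type 1. Markers of other kidney cells were also present and differed between groups and within them. The 8 endothelial markers, all above the filter, had mean levels of 5.28 to 8.06 in dB/dB catalase-Tg, 7.33 to 8.20 in dB/dB, 4.43 to 6.41 in catalase-Tg and 5.11 to 7.95 in wild type. Podocyte markers, 5 of 5 above the filter, ran from 4.73 to 7.65 in dB/dB catalase-Tg, 7.21 to 9.53 in dB/dB, 4.34 to 4.91 in catalase-Tg and 4.38 to 9.41 in wild type. Loop of Henle and distal tubule markers, 6 of 6, ran from 11.79 to 12.69 in dB/dB catalase-Tg, 12.75 to 13.10 in dB/dB, 9.37 to 10.11 in catalase-Tg and 9.74 to 13.25 in wild type. Mural and fibroblast markers passed for 5 of 7, with Col1a1 and Dcn below the filter, at mean levels of 4.32 to 7.54 in dB/dB catalase-Tg, 6.34 to 7.06 in dB/dB, 3.86 to 5.55 in catalase-Tg and 4.17 to 7.14 in wild type. Leukocyte markers passed for 4 of 6, with Cd68 and Itgam below the filter, at 4.02 to 5.89 in dB/dB catalase-Tg, 4.39 to 5.57 in dB/dB, 3.90 to 5.03 in catalase-Tg and 4.11 to 5.13 in wild type. Of the 6 plasma and B cell markers 4 were below the filter (Cd79a, Cd79b, Ms4a1 and Mzb1). The score of the other 2, a mean difference from the 12-array mean, was 1.68 on wild type 3 and at most 0.32 on the other 11 arrays. Wild type 3 was the highest array for 6 of the 31 listed genes (Atf6, Canx, Dnajb11, Creld2, P4hb and Pdia6). Catalase-Tg 2, with a plasma and B cell score of -0.51, was also the highest array for 6 (Eif2ak3, Xbp1, Pdia3, Pdia4, Sel1l and Derl2). The part of these markers in the listed genes' values was not tested beyond the covariate of endothelial, podocyte and mural markers. limma's array weights were lowest for dB/dB catalase-Tg 1 (0.172), wild type 1 (0.227) and catalase-Tg 1 (0.287). Xist, the X-inactivation RNA of female cells, read 11.91 on wild type 2 and 6.72 on wild type 3, against 2.67 or lower on the other 10 arrays. Eif2s3y, a gene of the Y chromosome, lay at the floor of 2.302 on wild type 2. It read 7.89 on wild type 3, and 7.88 to 8.93 over all arrays but wild type 2. No label gives the sex of the mice, and its part in the comparisons with wild type was not tested.

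No listed gene passed the threshold of an adjusted p of 0.05 in any of the 7 comparisons made, with limma fitted to the 12 arrays and Benjamini-Hochberg adjustment over 18144 probe sets. The whole array gave few calls as well. The share of probe sets past the threshold was 0% for dB/dB relative to wild type, 0.022% for catalase-Tg relative to wild type, 0.00551% for dB/dB catalase-Tg relative to dB/dB and 0.0276% for dB/dB catalase-Tg relative to catalase-Tg. It was 0.0165% for the average dB/dB effect, 0.0276% for the average catalase-Tg effect and 0.00551% for the interaction of the 2 factors. At an unadjusted p under 0.05 the number of listed genes was 0, 1, 0 and 3 of 31 in the first 4 comparisons, against 4.16%, 9.15%, 7.5% and 6.86% of all probe sets. It was 3, 0 and 0 in the other 3, against 12.2%, 18.1% and 1.64%. The differences below are therefore given as values with their standard errors (SE) and not as changes. The same arrays enter several comparisons, so that values side by side are not independent of each other.

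**Figure D1:**
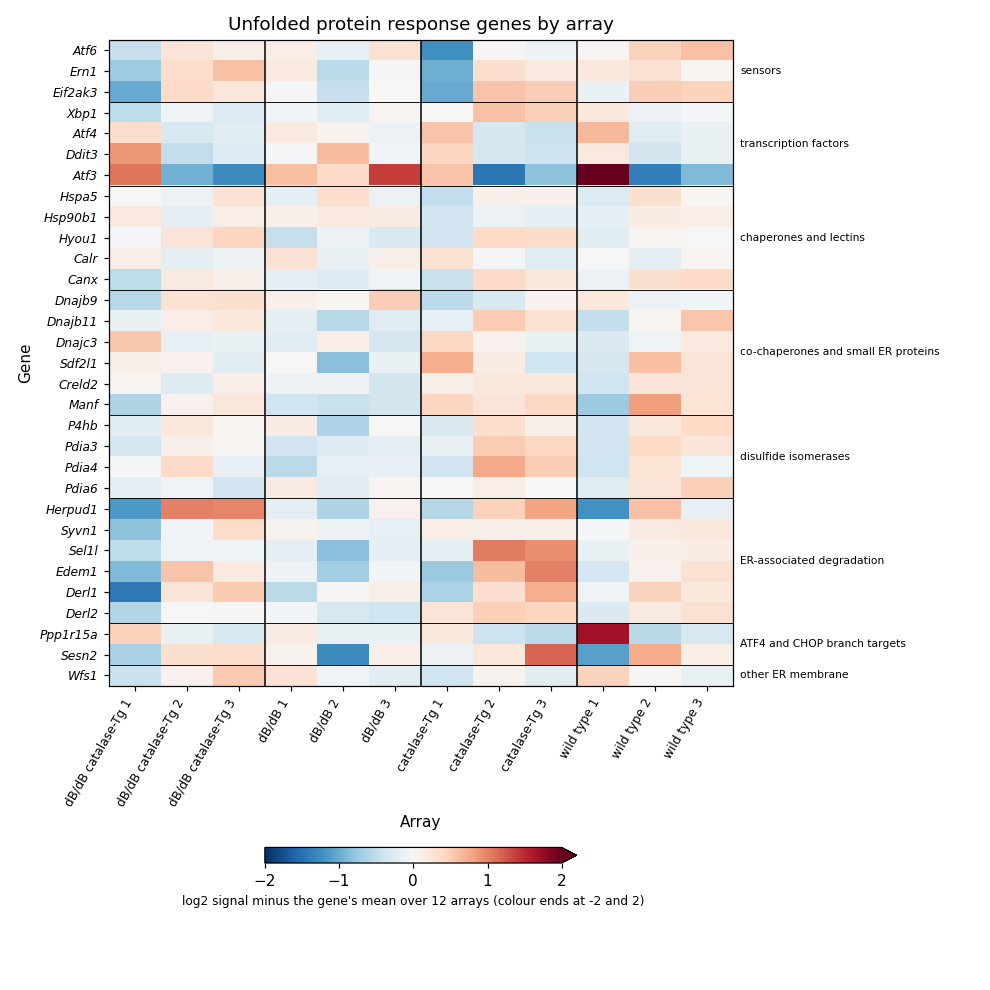
Signal of the 31 kept genes on the 12 arrays, as log2 signal minus the gene's own mean over all arrays, with genes in rows by role and arrays in columns by group. The degradation genes and the sensors are low on dB/dB catalase-Tg 1, and Atf3 is high on wild type 1, where it reads 8.25.

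The 3 sensors were lowest on catalase-Tg 1. Atf6, the sensor that becomes a transcription factor, read 5.46, 6.19 and 6.05 (log2) in dB/dB catalase-Tg, 6.07, 5.76 and 6.23 in dB/dB, 4.70, 5.95 and 5.83 in catalase-Tg, and 5.99, 6.39 and 6.51 in wild type. The catalase-Tg arrays all lay below the wild-type arrays, though by little at the nearest pair of arrays, and catalase-Tg 1 stood well below the rest. Atf6 averaged 5.49 ± 0.69 in catalase-Tg and 6.30 ± 0.27 in wild type (SD, n = 3 each), a difference of -0.80 (SE 0.34, limma adjusted p = 0.534). It was the 1 listed gene of 31 that lay lower in catalase-Tg without overlap, against 7.8% of all probe sets, and none lay higher without overlap, against 5.74%. The second Atf6 probe set gave -0.60 with overlapping groups. Ern1 and Eif2ak3 followed the arrays in the same manner. Ern1 read 5.68 on dB/dB catalase-Tg 1 and 5.42 on catalase-Tg 1, and 5.85 to 6.99 on the other 10 arrays. Eif2ak3, the kinase of the ATF4 branch, read 5.12 and 5.11 on those same arrays and 5.66 to 6.70 on the others.

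Xbp1, the transcription factor whose mRNA IRE1 splices, had the smallest p among the listed genes. It read 10.21, 10.64 and 10.45 in dB/dB catalase-Tg, 10.67, 10.47 and 10.78 in dB/dB, 10.72, 11.30 and 11.19 in catalase-Tg, and 10.93, 10.61 and 10.68 in wild type. Catalase-Tg 2 and 3 were the highest arrays, and every catalase-Tg array lay above every dB/dB catalase-Tg array. Xbp1 averaged 10.43 ± 0.22 in dB/dB catalase-Tg and 11.07 ± 0.31 in catalase-Tg (SD, n = 3 each), a difference of -0.64 (SE 0.20, 95% interval -1.09 to -0.19, limma adjusted p = 0.677, unadjusted p = 0.0101). The other 3 Xbp1 probe sets gave -0.73, -0.72 and -0.53, and the groups did not overlap on any of the 4. Against wild type, the same catalase-Tg arrays gave 0.33 (SE 0.20, limma adjusted p = 0.634), and the interaction was -0.54 (SE 0.29, limma adjusted p = 1). The probe sets measure total Xbp1 signal, so that spliced and unspliced mRNA are not told apart here. With the score of endothelial, podocyte and mural markers as a covariate, the difference between dB/dB catalase-Tg and catalase-Tg was -0.61, with a limma adjusted p of 0.560.

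**Figure D2:**
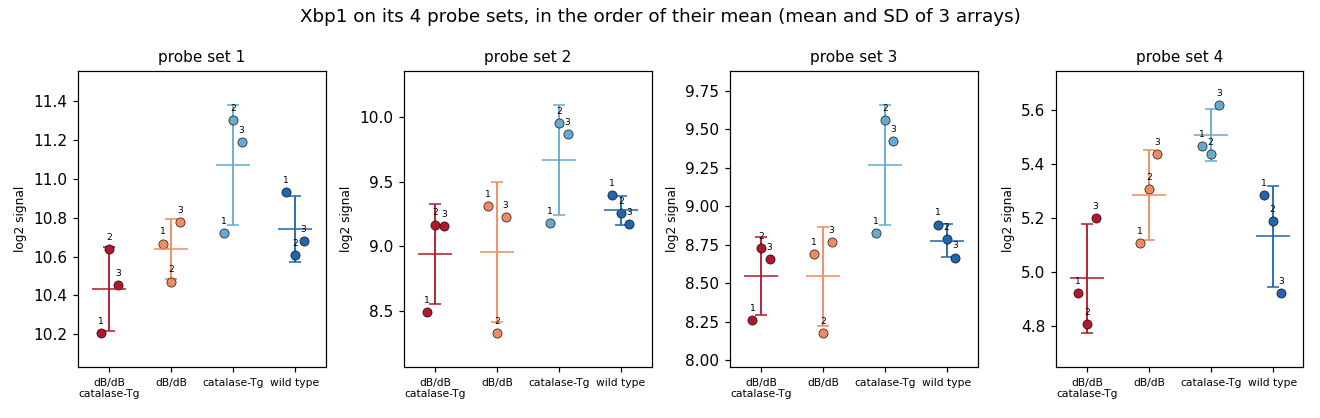
Xbp1 on its 4 probe sets, log2 signal on the vertical axes, with points for single arrays labelled by sample number, and a line and bars for the mean and SD of 3 arrays. On every probe set the dB/dB catalase-Tg arrays lie below the catalase-Tg arrays, with differences of -0.64, -0.73, -0.72 and -0.53.

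The factors of the PERK branch moved with single arrays. Atf3, a stress-induced factor downstream of ATF4, read 6.58, 4.55 and 4.26 in dB/dB catalase-Tg, 6.12, 5.90 and 6.89 in dB/dB, 6.09, 4.08 and 4.70 in catalase-Tg, and 8.25, 4.16 and 4.64 in wild type. The 3 dB/dB arrays and array 1 of each other group were at 5.90 or above, while the other 6 arrays were at 4.70 or below. The difference was -1.17 (SE 1.02, limma adjusted p = 0.693) for dB/dB catalase-Tg relative to dB/dB and 0.62 (SE 1.02, limma adjusted p = 0.834) for dB/dB relative to wild type. The first of these ran from -1.90 without dB/dB catalase-Tg 1 to -0.74 without dB/dB catalase-Tg 3. The endothelial marker score, a mean difference from the 12-array mean, was 0.88 to 1.75 in dB/dB, 1.60 on dB/dB catalase-Tg 1, 1.49 on wild type 1 and -0.04 on catalase-Tg 1, and ran from -2.03 to -0.08 on the other 6 arrays. The proximal tubule score split the same arrays in the other direction, at -1.73 to -0.16 where Atf3 was higher and 0.14 to 0.71 where it was lower. The mural and fibroblast score did not, at 0.01 on catalase-Tg 1 and 0.20 on wild type 3. The podocyte score and the loop of Henle and distal tubule score did not split the arrays that way either. They were 2.02 and 0.40 on wild type 3, and -2.30 and -2.26 on catalase-Tg 1. With the joint score of endothelial, podocyte and mural markers as a covariate, both Atf3 differences had the opposite sign. They were 0.55 for dB/dB catalase-Tg relative to dB/dB and -0.56 for dB/dB relative to wild type. Which cells the Atf3 signal came from was not tested. Ddit3, which encodes CHOP, read 7.59, 6.23 and 6.46 in dB/dB catalase-Tg and 6.71, 7.34 and 6.67 in dB/dB, with a difference of -0.15 (SE 0.38, limma adjusted p = 0.902). Array 1 was also the highest Ddit3 array in catalase-Tg, at 7.16, and in wild type, at 6.92. Atf4 was likewise highest on array 1 of each of these groups, at 8.35, 8.59 and 8.66 for dB/dB catalase-Tg, catalase-Tg and wild type, against 7.57 to 7.87 on their other arrays.

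Targets of ATF4 and CHOP varied by array, and several lay at or near the floor of the deposited values. Ppp1r15a (GADD34), the phosphatase subunit that reverses eIF2alpha phosphorylation, read 7.01 on wild type 1 and 4.78 to 5.80 on the other 11 arrays. Sesn2, a stress-induced antioxidant and mTORC1 regulator, read 4.16 on dB/dB 2, 4.33 on wild type 1 and 4.79 on dB/dB catalase-Tg 1, and 5.31 to 6.59 elsewhere. Trib3, a pseudokinase induced by CHOP, and Chac1, a glutathione-degrading enzyme, did not pass the filter: Chac1 lay at the floor of 2.302 on 11 of 12 arrays, and Trib3 lay between 2.302 and 2.91. Asns, asparagine synthetase, and Derl3 did not pass either. Derl3 ran from 3.29 to 3.92.

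**Figure D3:**
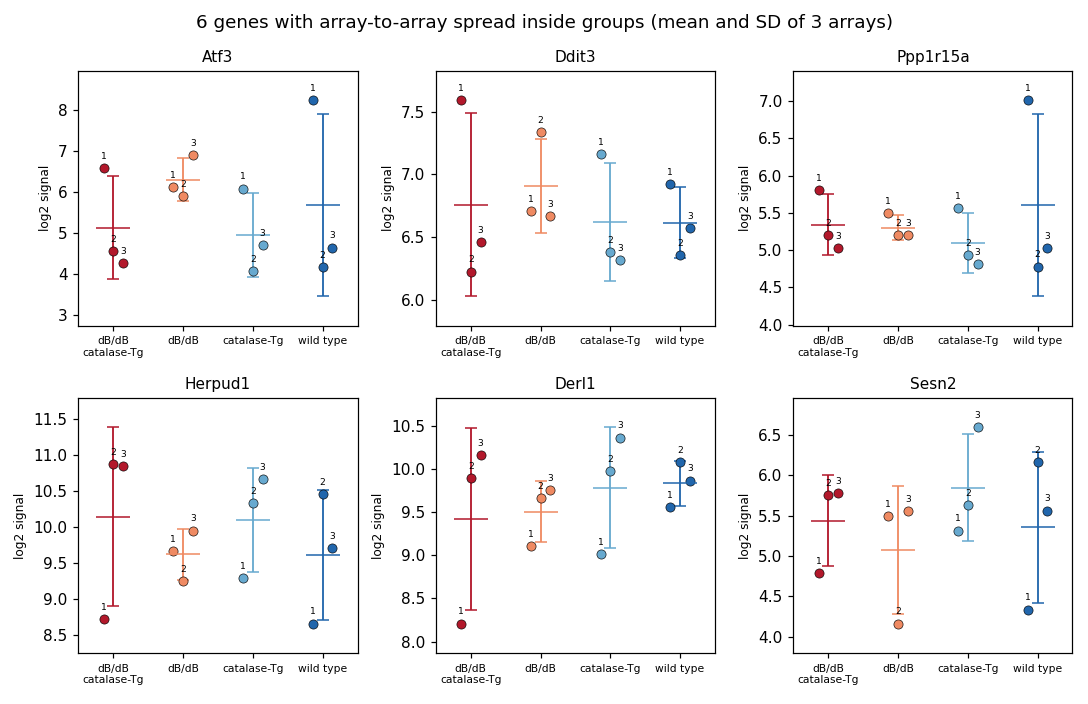
Log2 signal of 6 genes in the 4 groups, with single arrays as numbered points and the mean and SD of 3 arrays as a line and bars. Array 1 is the highest of its group for Atf3, Ddit3 and Ppp1r15a and the lowest for Herpud1 and Derl1 in dB/dB catalase-Tg, catalase-Tg and wild type.

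The chaperones, the best-known targets of ATF6, lay close together in all groups. Hspa5 (BiP), the main ER chaperone and repressor of the sensors, read 11.71, 11.59 and 11.996 in dB/dB catalase-Tg, 11.52, 12.04 and 11.58 in dB/dB, 11.21, 11.81 and 11.81 in catalase-Tg, and 11.43, 12.02 and 11.74 in wild type. The 4 groups overlapped. Its difference was -0.02 (SE 0.24, 95% interval -0.55 to 0.52, limma adjusted p = 0.983) for dB/dB relative to wild type and 0.05 (SE 0.24, 95% interval -0.49 to 0.59, limma adjusted p = 0.950) for dB/dB catalase-Tg relative to dB/dB. With 3 arrays a group, these intervals do not show that the levels were equal. Hsp90b1 (GRP94), the ER form of HSP90, averaged 11.35 ± 0.21 in dB/dB catalase-Tg, 11.46 ± 0.05 in dB/dB, 11.08 ± 0.13 in catalase-Tg and 11.33 ± 0.19 in wild type (SD, n = 3 each). The lectin chaperones calreticulin (Calr) and calnexin (Canx), which hold glycoproteins until they fold, ran from 12.03 to 12.59 and from 11.06 to 11.94 over the 12 arrays.

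Hyou1 (GRP170), a nucleotide exchange factor for BiP, was the chaperone that differed most between transgenic and plain dB/dB arrays. It read 6.61, 6.89 and 7.06 in dB/dB catalase-Tg against 6.17, 6.52 and 6.33 in dB/dB, and 6.25, 7.04 and 6.999 in catalase-Tg against 6.43, 6.69 and 6.65 in wild type. All 3 dB/dB catalase-Tg arrays lay above all 3 dB/dB arrays, and the second comparison overlapped. The difference was 0.51 (SE 0.23, 95% interval -0.00 to 1.03, limma adjusted p = 0.636). The second Hyou1 probe set gave 1.04 with overlapping groups. With the covariate the difference was 0.26. Dnajb11 (ERdj3), a BiP co-chaperone, read 7.91, 8.19 and 8.26 in dB/dB catalase-Tg and 7.88, 7.49 and 7.80 in dB/dB, again without overlap, with a difference of 0.40 (SE 0.28, limma adjusted p = 0.645). These 2 genes of 31 were those higher without overlap in that comparison, against 4.87% of all probe sets. No listed gene was lower without overlap in it, against 11.1%.

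Of the 6 co-chaperones and small ER proteins, 5 had differences below 0 for dB/dB relative to wild type, and none passed the test. Manf, a secreted ER stress factor, read 9.49, 10.17 and 10.32 in dB/dB catalase-Tg, 9.68, 9.64 and 9.72 in dB/dB, 10.51, 10.35 and 10.50 in catalase-Tg, and 9.37, 10.93 and 10.36 in wild type. The dB/dB arrays lay close together, below wild type 2 and 3 and above wild type 1. The difference was -0.54 (SE 0.35, limma adjusted p = 0.767) for dB/dB relative to wild type, and it was -0.96 without wild type 1 and -0.18 without wild type 2. For dB/dB catalase-Tg relative to catalase-Tg, where the groups did not overlap, it was -0.46 (SE 0.35, limma adjusted p = 0.800). Of the 4 disulfide isomerases, which form and rearrange disulfide bonds, all 4 had differences below 0 for dB/dB relative to wild type, and 62.0% of all probe sets did. Pdia3 (ERp57), which works with the lectin chaperones, gave -0.36 (SE 0.25, limma adjusted p = 0.767). Pdia6 read 9.02, 9.14 and 8.82 in dB/dB catalase-Tg and 9.22, 9.35 and 9.22 in catalase-Tg, without overlap, with a difference of -0.27 (SE 0.21, limma adjusted p = 0.802). Sdf2l1, a BiP cofactor with low signal, gave -0.50 (SE 0.34, limma adjusted p = 0.767) for dB/dB relative to wild type. P4hb, the classical protein disulfide isomerase, ran from 10.47 to 11.48 over the 12 arrays, and Pdia4 from 5.81 to 7.12, with a difference of 0.36 (SE 0.31, limma adjusted p = 0.691) for dB/dB catalase-Tg relative to dB/dB. Creld2, a secreted ER stress protein, ran from 7.67 to 8.33, and Dnajb9 (ERdj4), which restrains IRE1, from 9.10 to 10.16. Wfs1, an ER membrane protein involved in calcium balance, ran from 5.36 to 6.33. Dnajc3, the inhibitor of PERK known as p58IPK, showed how far probe sets of a gene can part. Its brightest probe set gave -0.08 for dB/dB relative to wild type, while its other 4 gave -0.46, -0.55, -0.86 and -0.64.

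The ER-associated degradation genes, which move misfolded proteins to the proteasome, included 2 of the 3 genes with an unadjusted p under 0.05 for dB/dB catalase-Tg relative to catalase-Tg, Derl2 and Sel1l. Derl2, a channel component, read 9.01, 9.58 and 9.62 in dB/dB catalase-Tg, 9.54, 9.28 and 9.20 in dB/dB, 9.86, 10.07 and 10.03 in catalase-Tg, and 9.30, 9.78 and 9.90 in wild type. Every dB/dB catalase-Tg array lay below every catalase-Tg array. The difference was -0.58 (SE 0.22, limma adjusted p = 0.700), and over both transgene states the average dB/dB effect was -0.45 (SE 0.16, limma adjusted p = 0.383). Sel1l, the adaptor of the ubiquitin ligase Syvn1 (HRD1), read 7.21, 7.65 and 7.63 in dB/dB catalase-Tg, 7.54, 6.88 and 7.52 in dB/dB, 7.52, 8.75 and 8.65 in catalase-Tg, and 7.57, 7.81 and 7.87 in wild type. Catalase-Tg 2 and 3 lay above all other arrays, the highest of which was wild type 3, and catalase-Tg 1 did not. The difference was -0.81 (SE 0.32, limma adjusted p = 0.700) for dB/dB catalase-Tg relative to catalase-Tg. For dB/dB relative to wild type it was -0.44 (SE 0.32, limma adjusted p = 0.767), the 1 gene of 31 lower without overlap there, against 8.91% of all probe sets, with none higher against 2.52%. In dB/dB catalase-Tg relative to catalase-Tg the genes lower without overlap were Xbp1, Manf, Pdia6 and Derl2, 4 of 31 against 9.35% of all probe sets, and none was higher, against 6.67%.

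**Figure D4:**
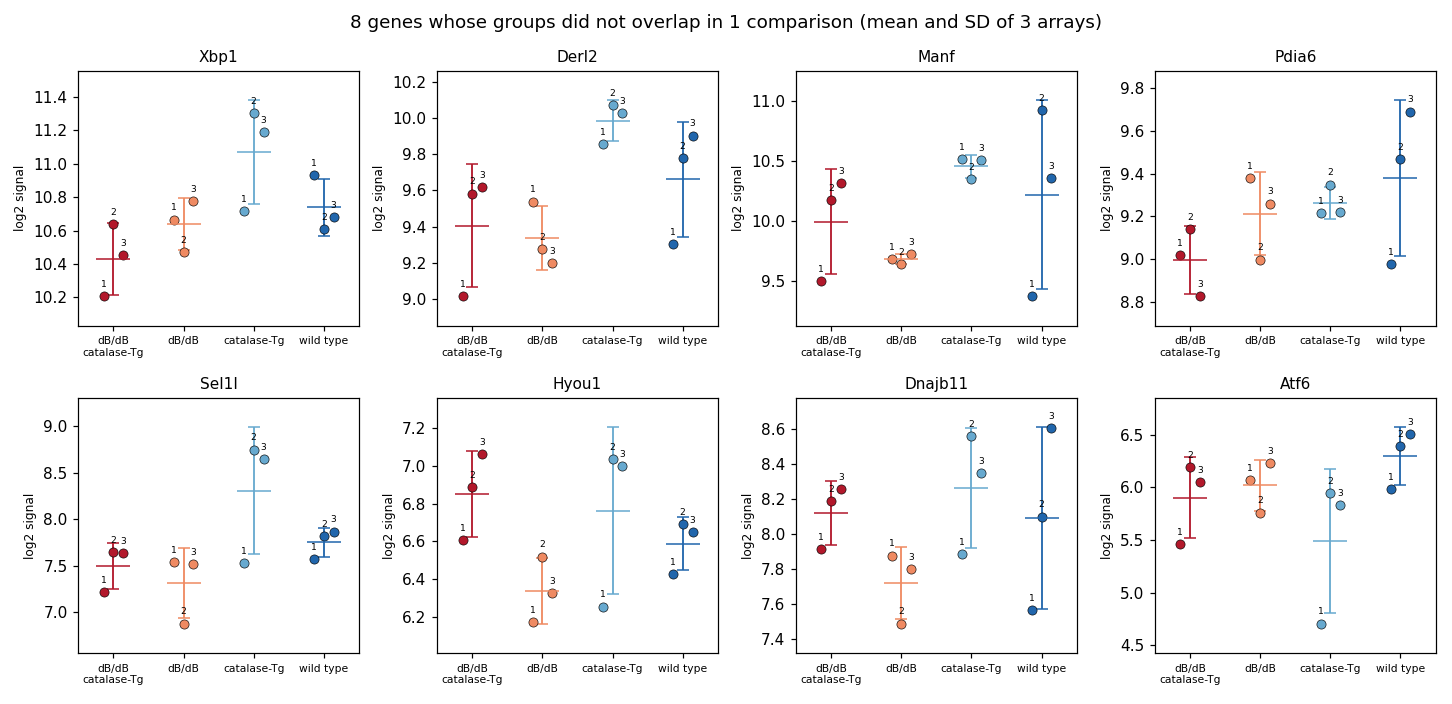
Log2 signal by group for the 8 genes that did not overlap in 1 of the 4 comparisons of groups, with single arrays as numbered points and the mean and SD of 3 arrays as a line and bars. For Xbp1, Derl2, Manf and Pdia6 the dB/dB catalase-Tg arrays lie below the catalase-Tg arrays, for Hyou1 and Dnajb11 they lie above the dB/dB arrays, Sel1l is lower in dB/dB than in wild type, and Atf6 is lower in catalase-Tg than in wild type.

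Herpud1, an ER membrane protein that organises degradation and is among the most inducible targets of the response, read 8.72, 10.87 and 10.85 in dB/dB catalase-Tg, 9.67, 9.25 and 9.95 in dB/dB, 9.30, 10.34 and 10.67 in catalase-Tg, and 8.66, 10.46 and 9.71 in wild type. Array 1 was the lowest of its group outside dB/dB, while Atf3 was highest on those same arrays. The difference was 0.52 (SE 0.63, limma adjusted p = 0.773) for dB/dB catalase-Tg relative to dB/dB and 0.01 (SE 0.63, limma adjusted p = 0.995) for dB/dB relative to wild type. The first of these ran from 0.16 without dB/dB catalase-Tg 2 to 1.24 without dB/dB catalase-Tg 1. Derl1 ran from 8.21 on dB/dB catalase-Tg 1 to 10.36 on catalase-Tg 3. Edem1, which pulls mannose-trimmed glycoproteins out of folding, ran from 6.41 to 8.30, and Syvn1 from 6.34 to 7.50, with the lowest values of all 3 genes on dB/dB catalase-Tg 1. That array was the lowest of the 12 for 8 of the 31 genes, and catalase-Tg 1 and dB/dB 2 were lowest for 5 each. Its median deviation over the 31 genes was -0.35, and over all probe sets -0.22. The difference between 3' and 5' Gapdh probe sets, a measure of RNA integrity, was 0.61 on dB/dB 2, 0.38 on dB/dB catalase-Tg 1 and -0.11 to 0.19 on the other 10 arrays. Its part in these values was not tested.

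Across the list, differences for dB/dB relative to wild type lay below 0 for 25 of 31 genes, with a median of -0.24, and for 62.0% of all probe sets, with a median of -0.11. With each array centred on its median, the median of all probe sets was 0.01, and 20 of 31 genes lay below 0, with a median of -0.12. The split was even for catalase-Tg relative to wild type, with 16 above and 15 below 0. It was 20 above and 11 below for dB/dB catalase-Tg relative to dB/dB, with a median of 0.07 against -0.02 for all probe sets, and 12 above and 19 below for dB/dB catalase-Tg relative to catalase-Tg, with -0.12 against -0.10. The 8 kept genes with an ERSE had a median of -0.12 for dB/dB relative to wild type, and the 19 kept genes with a window but no ERSE a median of -0.28. For dB/dB catalase-Tg relative to dB/dB the medians were -0.03 and 0.17.

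**Figure D5:**
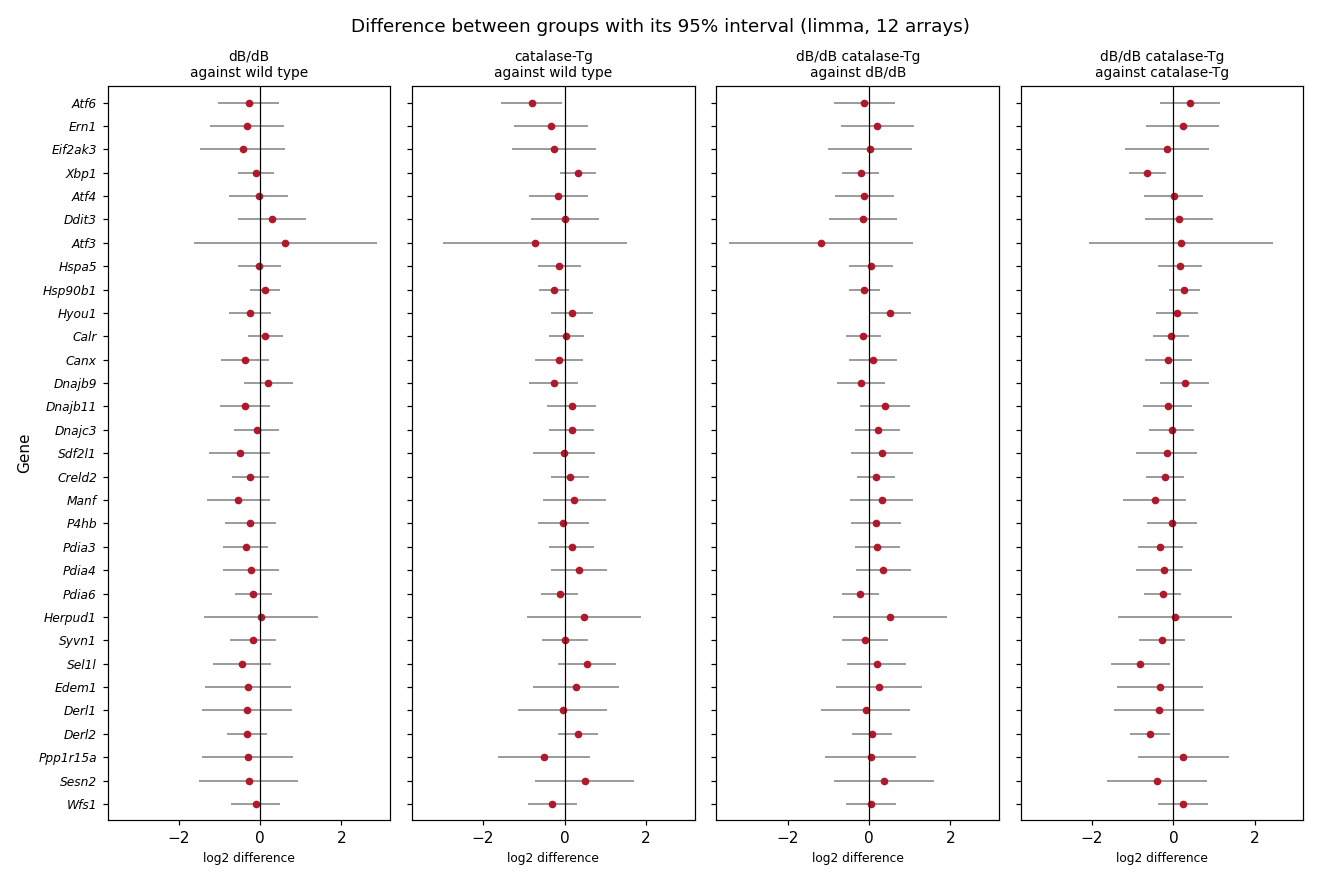
Difference in log2 signal between groups for the 31 kept genes, first-named minus second-named group, as points with 95% intervals from limma, in 4 panels, 1 for each comparison. Intervals that leave out 0 belong to Atf6 for catalase-Tg relative to wild type and to Xbp1, Sel1l and Derl2 for dB/dB catalase-Tg relative to catalase-Tg, before adjustment over the array.

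The other genes of the pathway, 198 in 8 lists of which 174 were tested, also gave no call in any comparison with limma. At an unadjusted p under 0.05 their number was 3, 11, 8 and 8 of 174 for dB/dB relative to wild type, catalase-Tg relative to wild type, dB/dB catalase-Tg relative to dB/dB and dB/dB catalase-Tg relative to catalase-Tg. These were 1.72%, 6.32%, 4.60% and 4.60%, against 4.16%, 9.15%, 7.5% and 6.86% of all probe sets. For dB/dB relative to wild type, 25 of 30 genes of ER entry and signal peptide cleavage and 24 of 28 other degradation genes lay below 0. Their medians were -0.19 and -0.23, while 7 of 10 ER calcium genes lay above 0. Of all probe sets, 62.0% lay below 0 there, with a median of -0.11. Ktn1 (kinectin), an ER membrane protein, had the smallest p of these genes in 2 comparisons. It read 8.01, 7.67 and 7.87 in dB/dB catalase-Tg, 8.26, 8.25 and 8.52 in dB/dB, 7.10, 7.18 and 7.24 in catalase-Tg, and 8.34, 7.69 and 7.66 in wild type. The catalase-Tg arrays lay below all others. The difference was -0.72 (SE 0.21, limma adjusted p = 0.441) for catalase-Tg relative to wild type and 0.68 (SE 0.21, limma adjusted p = 0.638) for dB/dB catalase-Tg relative to catalase-Tg. Cbs, a transsulfuration enzyme listed among ATF4 targets, read 6.99, 7.78 and 7.71 in dB/dB catalase-Tg, against 8.61, 9.41 and 9.36 in catalase-Tg, without overlap, with a difference of -1.63 (SE 0.61, limma adjusted p = 0.697). Ckap4, which shapes rough ER sheets, read 4.20, 3.89 and 4.16 in dB/dB catalase-Tg, against 6.13, 5.505 and 5.51 in dB/dB, with a difference of -1.63 (SE 0.61, limma adjusted p = 0.636). Ckap4 read 6.33 on wild type 1, where the endothelial score was 1.49, and 3.12 and 4.52 on the other wild-type arrays. On dB/dB catalase-Tg 1, where Ckap4 read 4.20, the endothelial score was 1.60. The part of other cells in these values was not tested.

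Leaving out the 3 arrays of low weight together (array 1 of dB/dB catalase-Tg, catalase-Tg and wild type) changed how many genes passed. For dB/dB relative to wild type 7 of 31 then passed, against 26.9% of all probe sets. Atf3 was higher, by 1.91 (SE 0.33, limma adjusted p = 0.00777), and Eif2ak3, Canx, Dnajb11, Manf, Pdia3 and Derl2 were lower. Manf, at -0.96 (SE 0.18), had the smallest adjusted p of the lower genes, 0.0100 by limma. For dB/dB catalase-Tg relative to dB/dB 3 of 31 passed, against 27.8%: Atf3 at -1.90 (SE 0.33, limma adjusted p = 0.00703), Herpud1 at 1.24 (SE 0.28, limma adjusted p = 0.0159) and Hyou1 at 0.64 (SE 0.15, limma adjusted p = 0.0175). As a share, the listed genes that passed were near that of all probe sets for dB/dB relative to wild type. For dB/dB catalase-Tg relative to dB/dB their share was below it. The arrays were picked because they stood far from their groups, so the spread that remains is smaller by construction, and the 2 wild-type arrays left are those with Xist signal.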

How the data were processed

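The deposited values are log2 signals per probe set of 12 Affymetrix arrays, for which the submitters' processing notes name GCRMA and limma, with versions not given in the sources used here. GCRMA corrects background by probe sequence and normalizes the arrays together. They ran from a floor of 2.302 to 15.66. No further normalization was applied. The table holds 45101 probe sets, 64 of them array controls that were set aside, and 18144 that lay above 4 on at least 3 arrays were tested. A gene was named only from a probe set with 1 symbol in GEO's annotation (34945 probe sets; 932 had several and 9160 none).

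Groups were compared with limma 3.58.1 (R 4.3.3), fitting a mean for each group to all 12 arrays, with default empirical Bayes settings and Benjamini-Hochberg adjustment over all probe sets tested. The method was tested on simulated data, with independent noise and the same spread on every array. The simulation therefore did not cover arrays that stand apart, such as array 1 of dB/dB catalase-Tg, catalase-Tg and wild type. No label says what the sample numbers share. In these data, deviations from the group means of same-numbered arrays correlated at 0.43 to 0.61 between dB/dB catalase-Tg and catalase-Tg. They correlated at 0.26 to 0.71 between dB/dB catalase-Tg and wild type. Between catalase-Tg and wild type it was 0.20 to 0.40, and every pair among these groups was above 0.1. Array 1 stood far from the others in each of these groups, which by itself can raise such correlations. They therefore cannot show whether the numbers pair those groups. dB/dB catalase-Tg 2 did not correlate best with catalase-Tg 2, nor catalase-Tg 2 with wild type 2, nor dB/dB catalase-Tg 3 with wild type 3. Over all pairs of groups, 11 of 18 correlated best with their own number. For dB/dB catalase-Tg with dB/dB (-0.13 to 0.11), dB/dB with catalase-Tg (-0.18 to 0.22) and dB/dB with wild type (0.0974 to 0.17), not every pair was above 0.1. The number of arrays limits the precision. A marker score is the mean deviation of a list's genes from their 12-array means. Promoter windows and their coordinates are RefSeq's, of GRCm38.p6. The 35 genes, the other pathway lists and the alternatives were chosen with earlier results of these data known. The text may name every listed gene, and of the other pathway genes up to 3 of smallest p per list and comparison. Alternatives were other filters, spread estimates, array weights, scalings, probe sets, a marker covariate, the sample number as a block, and arrays left out.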

Additional observations from a re-analysis of the deposited data

Results flagged for a closer look

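Asns, asparagine synthetase, did not pass the filter on low values, but read 5.24 on dB/dB catalase-Tg 3, against 3.63 or lower on the other 11 arrays. A second Asns probe set read 4.41 on that array. It was singled out because the gene lies outside the values tested and is above the filter's level on 1 array.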

How the results depend on the processing

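No listed gene passed the threshold in any of the 7 comparisons under no filter, a stricter filter, another spread estimate, quantile normalization, median centring, 1 probe set per gene, or the marker covariate, nor in the 4 comparisons between groups that were also fitted with those groups alone. The stricter filter left 28 of the 31 genes, and 17 genes had a second probe set, none of which passed. With array weights 4 passed for dB/dB catalase-Tg relative to dB/dB (38.5% of all probe sets did) and 2 for dB/dB catalase-Tg relative to catalase-Tg (4.87%). There were 3 for the average dB/dB effect (10.9%) and 4 for the average catalase-Tg effect (26.4%). In the remaining comparisons at most 0.0331% of all probe sets passed. The other pathway genes gave 112 calls, summed over 7 comparisons of 174 genes each. Array 1 of dB/dB catalase-Tg, of catalase-Tg and of wild type were also left out together. The numbers were then 7 for dB/dB relative to wild type (26.9% of all probe sets) and 3 for dB/dB catalase-Tg relative to dB/dB (27.8%). They were 6 for the average dB/dB effect (19.4%) and 5 for the average catalase-Tg effect (20.5%). In the remaining comparisons at most 0.788% of all probe sets passed. The other pathway genes gave 133 calls, again summed over 7 comparisons of 174 genes each. Leaving out 1 array at a time gave 0 to 1 for the average dB/dB effect. Manf passed without wild type 1 (-0.71, limma adjusted p = 0.0451, where 6.87% of all probe sets passed). The other pathway genes gave 0 to 11 calls, summed in the same way, with 11 without wild type 1 and 9 without wild type 2. Without wild type 2, 5.34% of all probe sets passed for the average catalase-Tg effect. With the sample number as a replicate block 0 listed genes passed in each comparison, so that it changed no call.

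Of 38 differences followed, 30 kept their sign in every alternative run for them and 8 did not. All 8 were far from the threshold as first fitted, as were the others. Among the 8, Atf3 for dB/dB relative to wild type passed without the 3 arrays of low weight. So did Atf3 and Herpud1 for dB/dB catalase-Tg relative to dB/dB. The cause of the sign changes was not tested. With the marker covariate, Atf3 was -0.56 for dB/dB relative to wild type, 0.91 for catalase-Tg relative to wild type and 0.55 for dB/dB catalase-Tg relative to dB/dB, Hspa5 was 0.17 for dB/dB relative to wild type and -0.23 for dB/dB catalase-Tg relative to dB/dB, and in that last comparison Ddit3 was 0.32 and Herpud1 -0.50. Hspa5 for dB/dB relative to wild type was 0.0782 with quantile normalization and 0.10 with median centring, and for dB/dB catalase-Tg relative to dB/dB it was -0.0067 with quantile normalization. Herpud1 for dB/dB relative to wild type was -0.12 with array weights, -0.0672 on its second probe set and -0.46 without the 3 arrays. With 1 array left out at a time, the ranges for dB/dB relative to wild type were -0.14 to 1.91 for Atf3, -0.18 to 0.13 for Hspa5 and -0.46 to 0.44 for Herpud1. Atf3 ran from -1.49 to 0.55 for catalase-Tg relative to wild type. For dB/dB catalase-Tg relative to dB/dB, Hspa5 ran from -0.0646 to 0.22 and Ddit3 from -0.56 to 0.12.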
